A study of Mus musculus with 36 samples.

Results

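The ERVK retroviruses other than IAP made up 258 of the 1561 repeat families counted in these libraries. Members were all families that the repeat annotation places in class LTR and family ERVK and whose name does not begin with IAP, so no measured value entered the rule. Of the 258, 36 were internal sequences and 222 were long terminal repeats (LTRs). The other 25 ERVK families were IAP elements. A filter on low counts kept 254 members for testing, 36 internal and 218 LTR. The 4 members that did not pass it were RLTR43A, RLTR43B, RMER3D2 and RNLTR23, with 1, 0, 132 and 157 counts over all 36 libraries.

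ERVK elements descend from betaretrovirus-like viruses that entered the mouse germ line. A complete copy carries an internal sequence with retroviral genes between a pair of LTRs, and the LTR holds the promoter that starts its transcription. Recombination between the LTRs of a copy leaves a solo LTR, which can still act as a promoter or enhancer. In mouse cells, copies are kept silent by KRAB zinc finger proteins that recruit TRIM28 and the H3K9 methyltransferase SETDB1, together with DNA methylation. Some families, such as ETn/MusD, can still move and have caused mutations in laboratory mice.

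The study targeted dCas9 proteins to the major satellite repeats (MSR) of mouse pericentric heterochromatin in MEF cells (mouse embryonic fibroblasts), to learn how the transcription of these repeats bears on the organisation of heterochromatin. The comparison here is of the ERVK transcripts in the same libraries. The MSR-dCas9-Control line expresses dCas9 alone and the MSR-dCas9-Activator line expresses dCas9 fused to the transcriptional activator VPR, both from a doxycycline (dox) inducible promoter on a PiggyBac plasmid that also carries the MSR guide RNA. Both are hygromycin-selected mixed cultures, not single clones. Each line was sampled uninduced, induced at 10 ng/ml dox, and then at 4 times up to 24 h without dox (3, 6, 12 and 24 h), with 3 replicates in each of the 12 groups. Induction lasted 24 h in MSR-dCas9-Control and 6 h in MSR-dCas9-Activator, so that effector and length of dox exposure cannot be told apart in comparisons of the lines from induction on. Neither line had dox in the uninduced comparison. In all comparisons the line itself is confounded with the effector, since each effector was measured in 1 line.

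Gene counts per library ranged from 27376846 to 57371803 and member counts from 376896 to 1018547. Normalised counts, used throughout, are counts divided by the gene-based library size and brought back to the mean size, and differences are log2 fold changes from edgeR with p-values adjusted by Benjamini-Hochberg over 1492 repeat families. A family was called when the adjusted p was under 0.05 and the log2 fold change was beyond 0.5. Normalised counts of the targeted repeat, GSAT_MM, ranged from 937 to 1938 in all MSR-dCas9-Control libraries, from 2200.1 to 4168 in uninduced and from 97607 to 1973300 in all later MSR-dCas9-Activator libraries. The fibroblast marker sum (9 genes) was 922085 to 1453300 in MSR-dCas9-Control and 471322 to 1448320 in MSR-dCas9-Activator libraries. Not all of these genes had high counts. Over all libraries Thy1 stayed at or below 8.60 and Lum ranged from 2.93 to 379, while Col1a1 ranged from 113266 to 594344. The sums for epithelial, leukocyte, pluripotent and germ cell markers stayed at or below 375. The endothelial sum (3 genes) was 3.85 to 36.1 in MSR-dCas9-Control and 11.8 to 1384 in MSR-dCas9-Activator libraries, of which Pecam1 gave up to 1350 while Cdh5 and Kdr stayed at or below 23.0 and 56.5. The part of these markers in the member values was not tested. In bulk RNA, a change in the number of transcribing cells and a change in RNA per cell cannot be told apart.

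Before induction, no member was called between the lines. Of the 254 members 0 were called higher and 0 lower by edgeR, 6 had an unadjusted p under 0.05 and DESeq2 called 0. Over all repeat families 0.0670% were called higher and 0% lower. The median log2 fold change of the members was 0.06. Fitted on the 6 uninduced libraries alone, 1 member was called, MMERVK10D3_I-int, at a log2 fold change of 0.51.

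From induction on, far more ERVK families were called higher than lower in MSR-dCas9-Activator at every time point under this scaling. In induced cells 98 members were called higher and 6 lower, beside 20.2% and 12.3% of all families, and the fit on the induced libraries alone called 61 and 2. After 3 h without dox 145 members were higher and 5 lower (31.0% and 15.8% of all families), and after 6 h 167 and 3 (34.4% and 11.2%). The count peaked at 12 h with 205 higher and 3 lower (45.4% and 5.76% of all families). By 24 h, 128 were higher and 1 lower (29.0% and 2.28%). As shares of the members, 38.6%, 57.1%, 65.7%, 80.7% and 50.4% were higher. Median log2 fold changes of the members were 0.35, 0.60, 0.66, 0.89 and 0.52 in that order, against 0.002, 0.11, 0.21, 0.45 and 0.24 over all repeat families.

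**Figure D1:**
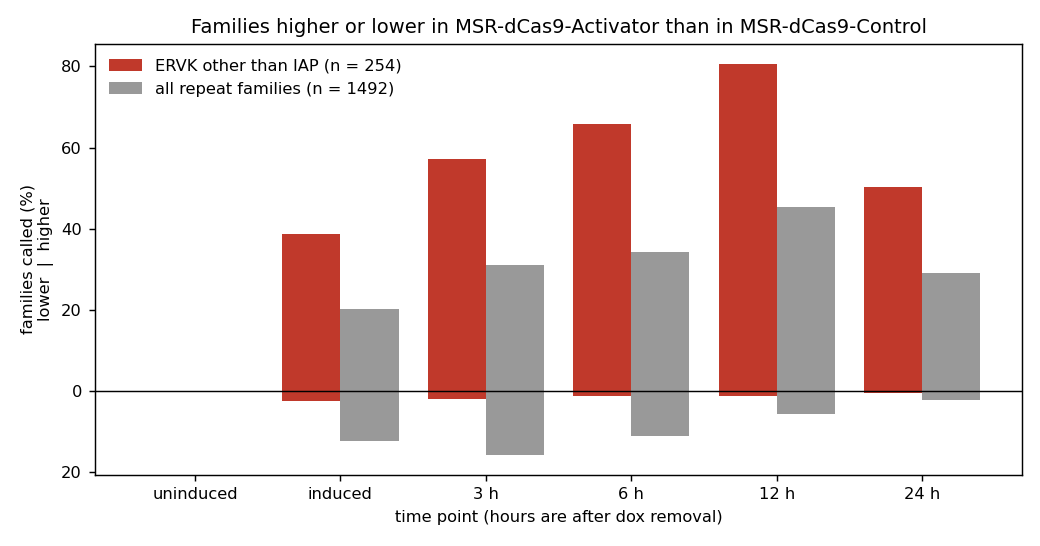
Share of families (%, vertical axis) called higher (above 0) or lower (below 0) in MSR-dCas9-Activator than in MSR-dCas9-Control at each time point, for the 254 ERVK families other than IAP (red) and all 1492 repeat families (grey). No member was called before induction, and the share called higher was largest at 12 h, 80.7% of members against 45.4% of all families under gene scaling. Scaled to mitochondrially encoded mRNAs, higher and lower calls of members were 46 and 40 at 6 h.

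These directions depend on the scaling. The 13 mitochondrially encoded mRNAs took a mean of 1.68 to 2.08% of gene counts in the MSR-dCas9-Control groups and of 2.29 to 2.87% in the MSR-dCas9-Activator groups from induction onward. Scaling to them shifted the log2 fold changes by about -0.36, -0.59, -0.71, -0.65 and -0.24 from induced to 24 h. Values refitted on that scale can differ slightly from this shift. Members called higher and lower then numbered 44 and 20, 55 and 35, 46 and 40, 89 and 17, and 65 and 1, and the medians of the members became -0.009, 0.02, -0.03, 0.24 and 0.26. Applied to the median of all genes, the shift takes it from 0.10 to -0.26 in induced cells and from 0.15 to -0.50 at 12 h. Of 254 members, 163 already lay above the median of all genes before induction, and 194, 204, 218, 236 and 231 did from induced to 24 h. By more than 0.5 (log2), 2 did before induction and 81, 117, 131, 171 and 112 from induced to 24 h. A common scale factor leaves these counts as they are. Against a repeat-based scale, built from the families that are not members, 110, 146, 139, 140 and 87 were called higher and 5, 5, 6, 5 and 3 lower. For member calls on these other scales, here and below, the share over all repeat families was not counted. The shares given elsewhere belong to gene scaling, so these calls cannot be set against them.

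The summed normalised count of the members showed the same time course under gene scaling. It shares its library sizes with the calls, so it is not separate evidence. In uninduced cells the MSR-dCas9-Control libraries held 507751, 500370 and 552051 and the MSR-dCas9-Activator libraries 528500, 481124 and 602907. In induced cells the MSR-dCas9-Control libraries held 500910, 590956 and 576502 and the MSR-dCas9-Activator libraries 691335, 537446 and 801782. Replicate 2 of induced MSR-dCas9-Activator lay within the MSR-dCas9-Control range, and the other two above it. At 12 h the MSR-dCas9-Control libraries held 570863, 535834 and 543330 and the MSR-dCas9-Activator libraries 955208, 965788 and 1039630, with no overlap. At 24 h the values were 583276, 571119 and 631673 against 987554, 720160 and 849345, again with no overlap. From uninduced through induced to 24 h, the ratio of the group means was 1.03, 1.22, 1.44, 1.51, 1.79 and 1.43. For all repeat families together it was 1.04, 1.04, 1.12, 1.24, 1.59 and 1.32. That sum includes the targeted GSAT_MM, and the ratio without it was not computed. At 12 h GSAT_MM held 330627, 811697 and 1973300 of 15562000, 15884500 and 21678000 repeat counts in MSR-dCas9-Activator. In MSR-dCas9-Control it held 1540, 1547 and 1133 at that time. Under mitochondrial scaling the ratios from induction on fall by about the shifts given above, most at 6 h (-0.71, log2) and least at 24 h (-0.24). The time course therefore differs on that scale, on which overlap of the libraries was not examined.

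Most members that rose did so at several times. Over the 5 time points from induction on, 205 members were called higher at least once, 89 of them at all 5, and 42 were never called. The largest difference fell at 12 h for 183 of the 205, under gene scaling. Under mitochondrial scaling the median of the members was 0.24 at 12 h and 0.26 at 24 h. On the repeat-based scale 146 members were higher at 3 h and 140 at 12 h. The summed count of all repeat families, GSAT_MM included, also had its largest ratio between the lines at 12 h, 1.59 under gene scaling. Of the 98 members higher in induced cells, 90 were also higher at 24 h, where they formed 90 of 128. The remaining 38 of those 128 were not called higher in induced cells.

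Within the MSR-dCas9-Activator line, 96 members rose and 5 fell on induction (19.6% and 12.4% of all families), but 32 and 42 under mitochondrial scaling. In MSR-dCas9-Control the same step called 0 and 0 members (0% and 0% of all families), with 5 at an unadjusted p under 0.05 and 0 called by DESeq2. The fit on those 6 libraries alone called 1, RLTR22_Mus. The change on induction itself differed between the lines for 73 members, 69 in the direction of a larger rise in MSR-dCas9-Activator and 4 in the other (11.8% and 9.85% of all families), and for 18 and 6 under mitochondrial scaling. The difference between the lines shares its libraries with both steps within a line, so it is not separate evidence.

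Between the induced state and 24 h after dox removal, 39 members rose in MSR-dCas9-Activator and 1, RLTR13D, fell. These were 15.4% and 0.394% of the members, below the 26.9% and 0.737% of all families. This count rested on few libraries. The sum of both directions was 40 with all libraries, 77 without replicate 3 of the induced group, 26 without replicate 1 and 72 without replicate 2 of the 24 h group, and 165 under mitochondrial scaling. MSR-dCas9-Control changed in 0 and 0 members over the same step (0% and 0% of all families), with 8 at an unadjusted p under 0.05 and 0 called by DESeq2.

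Internal sequences, which carry the retroviral genes, had larger median differences than LTRs, a contrast given without a test. Of the 36 internal members 24, 26, 31, 32 and 25 were called higher from induced to 24 h and 2, 1, 1, 1 and 1 lower. Of the 218 LTR members 74, 119, 136, 173 and 103 were called higher and 4, 4, 2, 2 and 0 lower. At these times 38.6%, 57.1%, 65.7%, 80.7% and 50.4% of all members were called higher. Over all repeat families it was 20.2%, 31.0%, 34.4%, 45.4% and 29.0% higher, and 12.3%, 15.8%, 11.2%, 5.76% and 2.28% lower. Median log2 fold changes at 12 h were 1.17 for internal and 0.84 for LTR members. The summed internal count was 2.11 times that of MSR-dCas9-Control at 12 h and the summed LTR count 1.71 times. Under mitochondrial scaling both ratios fall by about the shift given above.

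The MMERVK families, recent mouse ERVK elements with complete retroviral genes in some copies, were called higher in 6 of 6 members at all 5 time points. The share called higher ran from 38.6% (induced) to 80.7% (12 h) of all members, and from 20.2% to 45.4% of all families. Whether this group differs from those shares was not tested. The median log2 fold change of the MMERVK families was 1.35 in induced cells, 2.10 at 12 h and 1.46 at 24 h. Normalised counts of MMERVK10D3_I-int, an internal sequence, were 353, 349 and 424 in the induced MSR-dCas9-Control libraries and 2436, 1475 and 3059 in the induced MSR-dCas9-Activator libraries. At 12 h they were 361, 380.1 and 383 against 3870.2, 4498 and 4361. The groups did not overlap at either time. The log2 fold change was 2.62 ± 0.17 (SE) in induced cells (edgeR, adjusted p = 7.20e-20), 3.50 ± 0.18 (SE) at 12 h (adjusted p = 2.37e-26) and 2.97 ± 0.17 (SE) at 24 h (adjusted p = 3.78e-23). Before induction its MSR-dCas9-Activator libraries, at 402, 509 and 586, were already above those of MSR-dCas9-Control, at 337, 352 and 351, though the difference was not called (0.52 ± 0.17 (SE), adjusted p = 0.806).

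MMERVK10D3_LTR, the LTR of the same element by name, followed its internal sequence. At 12 h the libraries held 41.7, 40.5 and 38.1 in MSR-dCas9-Control and 305, 236 and 275 in MSR-dCas9-Activator, a log2 fold change of 2.75 ± 0.24 (SE) (edgeR, adjusted p = 1.13e-18). MMERVK9C_I-int and MMERVK9E_I-int differed by 2.21 ± 0.15 and 1.64 ± 0.14 (log2, SE) at the same time, also with no overlap of the libraries. MMERVK10C-int, the internal sequence of a family with many full-length copies, had normalised counts of 11379, 9810.2 and 9311 in MSR-dCas9-Control and 32148, 35493 and 36623 in MSR-dCas9-Activator at 12 h (log2 fold change 1.78 ± 0.21 (SE), adjusted p = 9.32e-08). Its spread was wide at 6 h, when replicate 1 of MSR-dCas9-Control held 23963 and the other two 9244 and 11582. No MSR-dCas9-Activator library overlapped these. The log2 fold change at 6 h was 0.98 ± 0.21 (SE) (adjusted p = 3.26e-04), and the call was lost in the fit on the 6 h libraries alone (adjusted p = 0.0819).

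**Figure D2:**
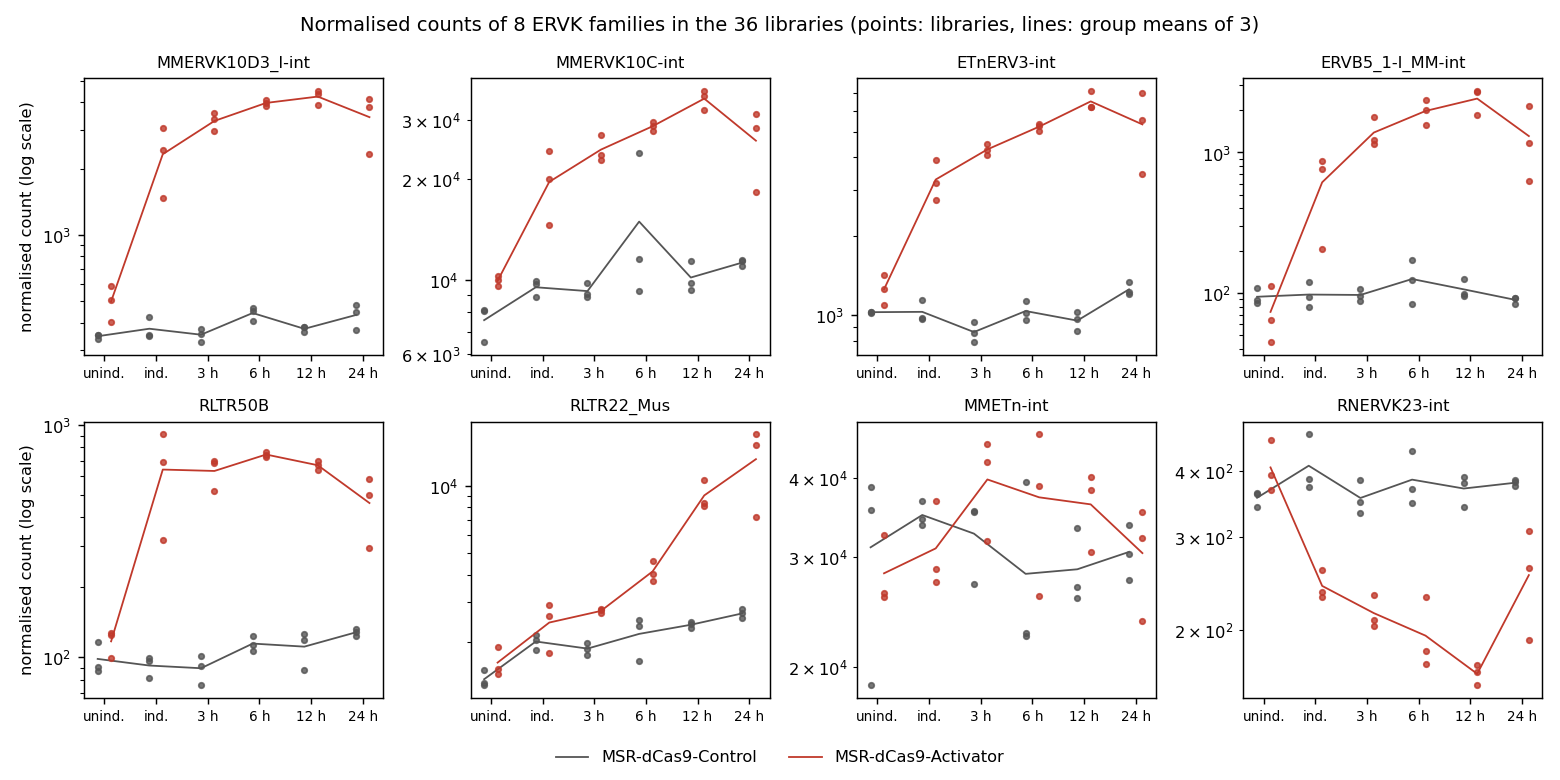
Normalised counts (vertical axes, log scale) of 8 ERVK families in each of the 36 libraries, by time point, with MSR-dCas9-Control in grey and MSR-dCas9-Activator in red and lines through the means of 3. The MMERVK10D3, MMERVK10C, ETnERV3, ERVB5_1 and RLTR50B panels do not overlap from induction on, RLTR22_Mus does not from 3 h on, MMETn-int overlaps at all times shown and RNERVK23-int is lower in MSR-dCas9-Activator from induction on, all under gene scaling. Scaled to mitochondrially encoded mRNAs, RLTR22_Mus was at -0.01 (log2) at 3 h.

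The ETn/MusD group has 5 members, of which ETn itself lacks retroviral genes and relies on proteins made by MusD. ETnERV3-int, ETnERV2-int and ETnERV-int were called higher at all 5 times and RLTRETN_Mm, their LTR, at 4. ETnERV3-int was without overlap already before induction, at a difference of 0.29 that was not called. At 12 h the normalised counts of ETnERV3-int were 1025, 969.7 and 869 in MSR-dCas9-Control and 6209.6, 6231 and 7156 in MSR-dCas9-Activator (log2 fold change 2.77 ± 0.15 (SE), edgeR adjusted p = 2.56e-32). At 24 h they were 1227, 1337 and 1203 against 7015, 3448 and 5549.8 (2.08 ± 0.15 (SE), adjusted p = 1.32e-23), where replicate 2 of MSR-dCas9-Activator was the lowest but still above every MSR-dCas9-Control library. ETnERV2-int and ETnERV-int differed by 1.55 ± 0.16 (SE) and 1.55 ± 0.24 (SE) at 12 h. In induced cells ETnERV-int overlapped between the lines, and without replicate 3 of induced MSR-dCas9-Activator its log2 fold change fell to 0.54 and its call was lost.

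MMETn-int, the internal sequence of ETn, took 4.86% of all member counts, the largest share of any member, and was not called at any time. In induced cells its normalised counts were 33648, 34451 and 36767 in MSR-dCas9-Control and 28627, 27360.5 and 36761 in MSR-dCas9-Activator. At 12 h they were 33357, 26779 and 25755 against 40168, 30496 and 38372. The libraries overlapped at both times, and the log2 fold changes were -0.19 ± 0.20 (SE) and 0.33 ± 0.20 (SE). DESeq2 called it higher at 6 h and 12 h, at 0.58 and 0.51, as did edgeR at 6 h without replicate 3 of MSR-dCas9-Control (0.64) or replicate 2 of MSR-dCas9-Activator (0.53). In the other direction, it was called lower in induced cells under mitochondrial scaling (-0.55). The LTR assigned to it, RLTRETN_Mm, differed by 0.67 ± 0.14 (SE) at 12 h (adjusted p = 1.19e-05).

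The ERVB group, named for its likeness to betaretroviruses, had 12 of 21 tested members higher and 2 lower in induced cells and 20 higher and 0 lower at 12 h. Of all members 38.6% were higher and 2.36% lower in induced cells, and 80.7% and 1.18% at 12 h. Of all families it was 20.2% and 12.3%, and 45.4% and 5.76%. The largest change of the ERVB group was in ERVB5_1-I_MM-int, an internal sequence. Normalised counts were 93.7, 79.8 and 119 in induced MSR-dCas9-Control and 765, 204 and 872 in induced MSR-dCas9-Activator, and 99.1, 125 and 94.8 against 2738, 1842 and 2673 at 12 h. The lowest MSR-dCas9-Activator library was above the highest MSR-dCas9-Control library at both times. Log2 fold changes were 2.61 ± 0.39 (SE) in induced cells (edgeR, adjusted p = 8.48e-06), 4.45 ± 0.40 (SE) at 12 h (adjusted p = 7.30e-10) and 3.79 ± 0.40 (SE) at 24 h (adjusted p = 3.47e-08). ERVB4_1-I_MM-int differed by 2.02 ± 0.27 (SE) in induced cells and 2.70 ± 0.28 (SE) at 12 h, with no overlap. ERVB7_1-LTR_MM was not called in induced cells (-0.06) or at 24 h (0.32) and was called from 3 h to 12 h (0.70 ± 0.15 (SE) at 12 h, and 0.06 under mitochondrial scaling).

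Mouse mammary tumour virus is represented by its internal sequence, MMTV-int, and its LTR, RLTR3_Mm. RLTR3_Mm had a normalised count of at most 5.29 in every MSR-dCas9-Control library. In MSR-dCas9-Activator it was 1.75, 3.94 and 2.13 uninduced, 21.1, 16.2 and 24.6 induced, 89.5, 75.3 and 97.1 at 6 h and 135, 84.4 and 106 at 12 h. From induction on every MSR-dCas9-Activator library was above every MSR-dCas9-Control library. At 12 h this rested on 298 raw counts against 5, a ratio after scaling for library size of 68.6 with an exact 95% interval of 29.1 to 213 that covers counting error only. RLTR3_Mm passed the filter on low counts only through the MSR-dCas9-Activator libraries, where it was high, so its values are given without a test. The counts of called members include it. MMTV-int, at 323, 352 and 345 against 576, 503 and 549 at 12 h, differed by a log2 fold change of 0.67 ± 0.16 (SE) (adjusted p = 1.47e-04) and was not called in induced cells (0.30) or at 24 h (0.36, but 0.55 and called without replicate 2 of MSR-dCas9-Activator). Its call at 6 h (0.51) was lost without replicate 1 or 3 of MSR-dCas9-Control or replicate 2 of MSR-dCas9-Activator, at 0.42, 0.44 and 0.47, and turned to -0.17 under mitochondrial scaling.

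**Figure D3:**
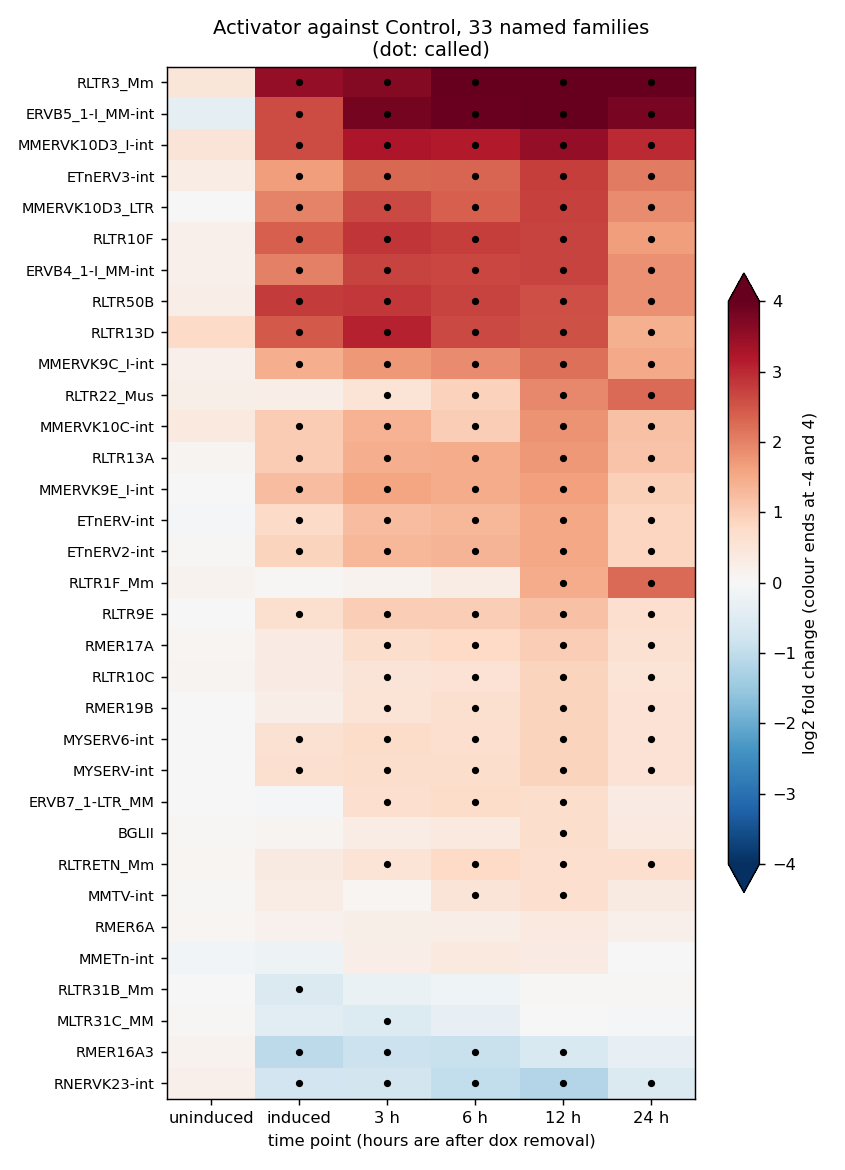
Log2 fold change of MSR-dCas9-Activator against MSR-dCas9-Control (colour, red higher and blue lower, ending at -4 and 4) for 33 named families (rows, ordered by the value at 12 h) at 6 time points (columns), with a dot where the family was called, under gene scaling. No dot stands in the uninduced column, RLTR22_Mus and RLTR1F_Mm deepen towards 24 h, and 4 families at the bottom have calls in blue. The dots of RLTR3_Mm are not read as a test, since it passed the filter only through MSR-dCas9-Activator. Scaled to mitochondrially encoded mRNAs, 8 of the calls shown between 3 h and 6 h change sign.

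Among families grouped by the stem of their names, some groups were called higher throughout at 12 h. All 23 tested RLTR13 families, all 13 RLTR9, all 10 RLTR10 and all 10 RMER17 families were higher at that time, with medians of 1.30, 1.37, 1.45 and 0.95 (log2). The RLTR9 families include RLTR9A4 (4.11), with a mean of 7.79 normalised counts over the 36 libraries. Whether RLTR9A4 passed the filter on low counts only through MSR-dCas9-Activator, as RLTR3_Mm did, was not examined. Its call is therefore not read as support. Among 25 such groups of at least 4 tested members, 8 had every member higher. At 12 h 80.7% of all members and 45.4% of all families were called higher. A small group can be higher throughout at such a share, and whether the groups differ from it was not tested. In induced cells the counts in RLTR13, RLTR9, RLTR10 and RMER17 were 13 of 23, 10 of 13, 6 of 10 and 3 of 10. The share of all members then was 38.6%. Other groups moved less, with 2 of 8 RLTR31, 2 of 6 MLTR31 and 1 of 4 RMER3 families higher at 12 h. Of the 16 RLTR20 families 1, 7, 7, 11 and 2 were higher from induced to 24 h, and of the 5 RLTR11 families 0, 1, 1, 4 and 2. Counts of these groups under mitochondrial scaling were not made, and the shift of that scale at 12 h, -0.65, is about as large as the medians of RLTR20 and RLTR11 (both 0.65).

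**Figure D4:**
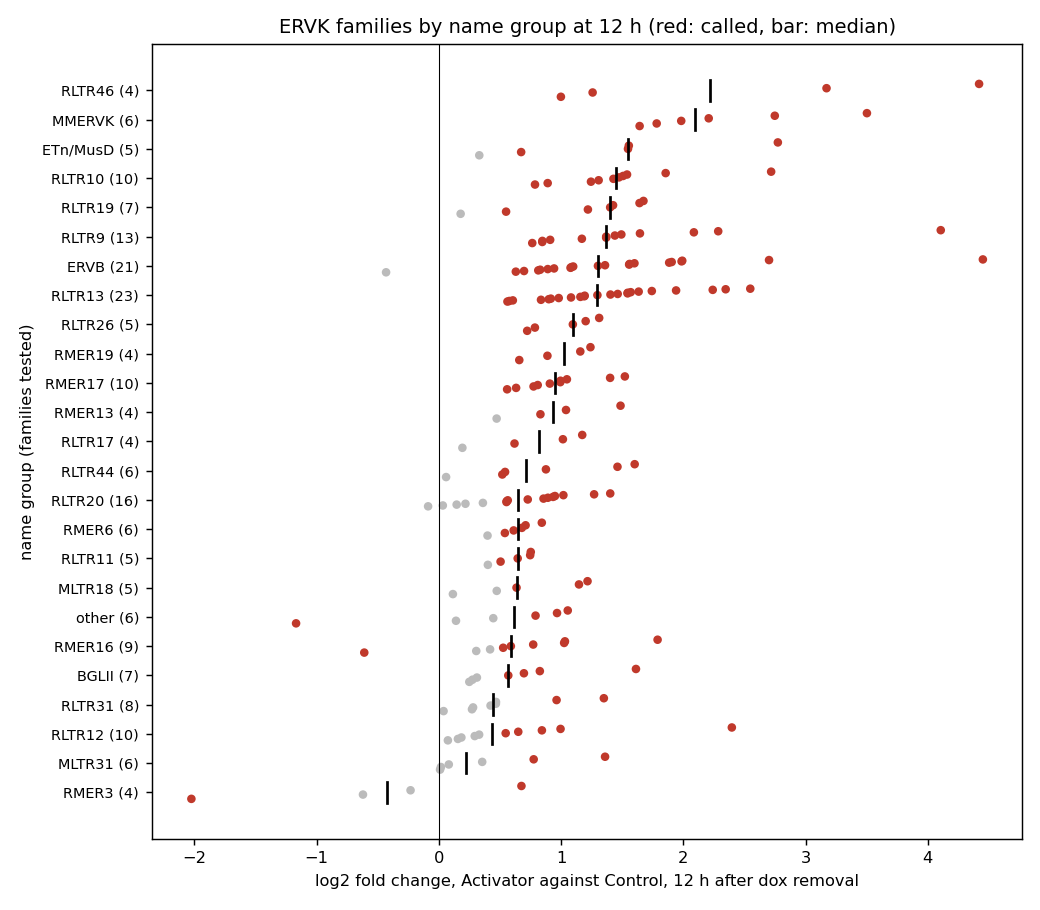
Log2 fold change of each family at 12 h (horizontal axis) in 25 name groups with at least 4 tested members (rows, number tested in parentheses), red where called and with a bar at the median, under gene scaling. All RLTR13, RLTR9, RLTR10, RMER17 and MMERVK members are red and right of 0, while RMER3 members lie on both sides of 0 and 2 of 8 RLTR31 members are red. At this time 80.7% of all members were called higher. Scarce members, such as RLTR9A4 of RLTR9, may have passed the filter through MSR-dCas9-Activator, which was not examined. Scaled to mitochondrially encoded mRNAs, the points move left by about 0.65.

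RLTR50B had the largest called rise in induced cells among members averaging 100 or more normalised counts. Its libraries held 81.2, 98.8 and 96.4 in MSR-dCas9-Control and 695, 320.2 and 912 in MSR-dCas9-Activator, with replicate 2 the lowest of the latter and no overlap (log2 fold change 2.79 ± 0.25 (SE), edgeR adjusted p = 3.38e-11). At 24 h the difference was 1.83 ± 0.24 (SE) (adjusted p = 7.79e-08). RLTR10F and RLTR13D followed a similar course. The log2 fold change of RLTR10F was 2.40 in induced cells, peaked at 2.85 after 3 h and was 1.67 by 24 h. That of RLTR13D was 2.44, 3.07 and 1.43 in that order. RLTR13D was without overlap already before induction, at 0.76, which was not called. It was also the 1 member that fell from induced to 24 h in MSR-dCas9-Activator, where it held 277, 127 and 312 and then 210.4, 131 and 161, which overlap. RLTR13A, of a group whose LTRs serve as enhancers in mouse trophoblast, differed by 1.01 in induced cells and 1.74 at 12 h. RLTR9E, an LTR bound by pluripotency factors in embryonic stem cells, differed by 0.63 and 1.17. Its call in induced cells was lost without replicate 3 of MSR-dCas9-Activator (0.46) and in the fit on the induced libraries alone (adjusted p = 0.0956).

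RLTR22_Mus and RLTR1F_Mm rose late and had their largest difference at 24 h. Normalised counts of RLTR22_Mus in MSR-dCas9-Activator were 2619, 1775 and 2923 in the induced state and 4035, 3744 and 4612 after 6 h without dox. They reached 8102, 8396 and 10620.2 after 12 h and 16988, 7215 and 15195 after 24 h, when MSR-dCas9-Control held 2690.0, 2558 and 2796. In induced cells the lines overlapped (log2 fold change 0.27 ± 0.18 (SE), edgeR adjusted p = 0.228), and at 24 h they did not (2.28 ± 0.19 (SE), adjusted p = 4.01e-12). RLTR1F_Mm in MSR-dCas9-Activator held 234, 232 and 278 induced, 505, 736 and 634 at 12 h and 1229, 905 and 1659 at 24 h, against 259, 245 and 275 in MSR-dCas9-Control at 24 h. RLTR22_Mus was called from 3 h, where the call was lost without replicate 3 of MSR-dCas9-Control or replicate 2 of MSR-dCas9-Activator (0.49 and 0.50). The log2 fold change of RLTR1F_Mm was 0.04 ± 0.17 (SE) in induced cells (adjusted p = 0.862), 1.47 ± 0.17 (SE) at 12 h (adjusted p = 8.30e-14) and 2.28 ± 0.17 (SE) at 24 h (adjusted p = 1.32e-23). From induced to 24 h within MSR-dCas9-Activator these LTRs rose by 2.43 ± 0.19 and 2.35 ± 0.17 (log2, SE), the largest changes of that step among the members.

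Of the families with many counts per library, RMER19B, an LTR bound by the KRAB zinc finger protein ZFP708, held 18869, 17710.5 and 19486 in MSR-dCas9-Control and 32212, 34207 and 37486 in MSR-dCas9-Activator at 12 h. The libraries did not overlap, with a log2 fold change of 0.89 ± 0.13 (SE) (edgeR, adjusted p = 2.72e-09). In induced cells they overlapped (0.25 ± 0.13 (SE), adjusted p = 0.0995). At 24 h it was called at 0.57, but not without replicate 1 of MSR-dCas9-Activator (0.37). RMER6A was not called at any time, with 0.40 ± 0.12 at 12 h, where DESeq2 called it at 0.58. MYSERV6-int and MYSERV-int were called at all 5 times, with 0.62 and 0.63 in induced cells and 0.89 and 0.88 at 12 h. The calls in induced cells were lost without replicate 3 of MSR-dCas9-Activator for MYSERV6-int (0.49) and without replicate 1 of MSR-dCas9-Control for MYSERV-int (0.50). At 24 h both were lost without replicate 1 of MSR-dCas9-Activator (0.42 for MYSERV6-int and 0.39 for MYSERV-int). RLTR10C, RMER17A and RLTRETN_Mm were called from 3 h to 24 h, and BGLII at 12 h, at 0.70. DESeq2 also called BGLII at 6 h (0.57), and its 12 h call was lost under mitochondrial scaling (0.05) and on the repeat-based scale (0.38). At 3 h RLTR10C was lost without replicate 1 or 3 of MSR-dCas9-Control or replicate 1 or 2 of MSR-dCas9-Activator (0.48, 0.48, 0.48 and 0.43), and RLTRETN_Mm without replicate 1 of MSR-dCas9-Control or replicate 2 of MSR-dCas9-Activator (0.45 and 0.46). At 3 h RMER19B was lost without replicate 2 of MSR-dCas9-Activator (0.43). At 24 h RLTR10C was lost without replicate 1 or 3 of MSR-dCas9-Activator (0.44 and 0.49) and RMER17A without replicate 1 (0.47). Under mitochondrial scaling RLTR10C and RMER19B were below 0 at 3 h and 6 h, RLTRETN_Mm at 3 h and MYSERV6-int at 6 h, RLTR10C at 6 h being the lowest (-0.12).

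8 members were called lower at some time. RNERVK23-int, an internal sequence, was lower at all 5 times. Its normalised counts were 389.9, 381 and 343 in MSR-dCas9-Control and 167, 157 and 172 in MSR-dCas9-Activator at 12 h, without overlap (log2 fold change -1.17 ± 0.17 (SE), edgeR adjusted p = 1.07e-09). RMER16A3 was lower from induced to 12 h, with 531, 537 and 512 against 243, 245 and 272 in induced cells (-1.06 ± 0.15 (SE), adjusted p = 4.59e-09). DESeq2 did not call RMER16A3 at 12 h (-0.43). At 24 h RMER16A3 was at -0.33 ± 0.15 (SE) and not called, and RNERVK23-int was called at -0.58 ± 0.16 (SE) but not without replicate 1 of MSR-dCas9-Activator (-0.40). RLTR31B_Mm was lower in induced cells (-0.59 ± 0.13 (SE), adjusted p = 1.54e-04), a call lost without replicate 2 of MSR-dCas9-Activator (-0.49), and MLTR31C_MM at 3 h (-0.55 ± 0.14 (SE), adjusted p = 3.15e-04), a call lost without replicate 3 of MSR-dCas9-Activator (-0.49) and by DESeq2 (-0.41). The other 4, named after their values were seen, were ERVB4_3-I_MM-int, ERVB4_3-LTR_MM, RMER3D1 and RMER3D4, with group means from 0.870 to 68.1 normalised counts where they were called lower. ERVB4_3-I_MM-int was called lower in induced cells (-0.67) and higher at 12 h (0.81).

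Internal sequence and LTR of the same element could be paired by name or known relation for 18 elements. Of these, 8 share a name apart from the ending -int, and 10 were set by hand (MMERVK10C-int with RLTR10C, MMETn-int with RLTRETN_Mm, MMTV-int with RLTR3_Mm, and MMERVK10D3 and 6 ERVB elements). In induced cells both parts were called higher in 3 pairs, the internal sequence alone in 7, the LTR alone in 3 and neither in 5. At 12 h both were higher in 15 pairs, the internal sequence alone in 1, ERVB4_3, and the LTR alone in 2, MMETn-int with RLTRETN_Mm and RLTR19. RLTRETN_Mm is also given above as the LTR of ETnERV3-int, ETnERV2-int and ETnERV-int, all called higher at 12 h. The class of the MMETn-int pair therefore rests on the pairing chosen. Of all members 38.6% were called higher in induced cells and 80.7% at 12 h, and of all families 20.2% and 45.4%. RLTR3_Mm, given without a test, set the class of the MMTV pair in the counts of pairs. That pair stands under the LTR alone in induced cells and under both at 12 h. The internal sequence had the larger log2 fold change in 12 of 18 pairs at both times. The differences within a pair ran from ERVB5_1 to MMTV. At 12 h ERVB5_1 had 4.45 ± 0.40 for the internal sequence and 1.60 ± 0.17 for the LTR (log2, SE). MMTV had 0.67 ± 0.16 and 5.98, the latter without a test and resting on the few counts given above. RLTR19-int was at 0.18 ± 0.12 and RLTR19 at 1.43 ± 0.14.

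**Figure D5:**
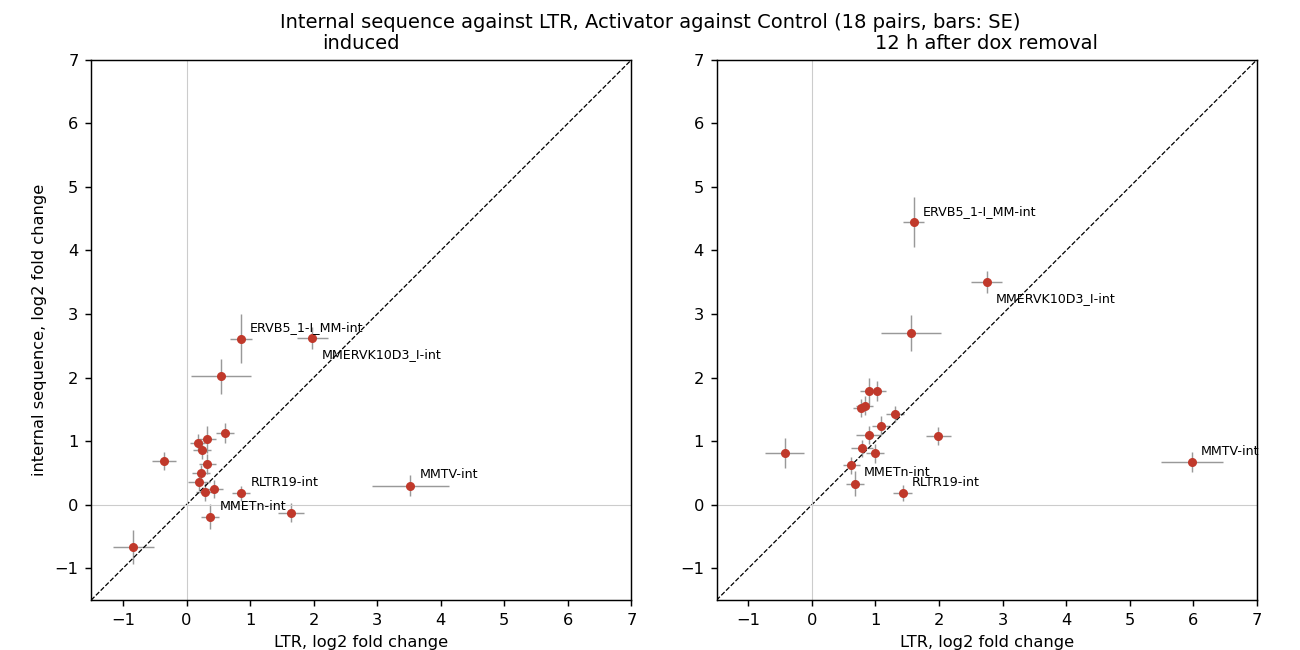
Log2 fold change of the internal sequence (vertical axis) against that of the LTR (horizontal axis) for 18 elements, MSR-dCas9-Activator against MSR-dCas9-Control in induced cells and at 12 h, with SE bars and a dashed line of equal change, under gene scaling. In both panels 12 of 18 points lie above the line, which a common scale factor leaves as it is, and MMTV-int lies far to the right of it. The LTR value of that point, RLTR3_Mm, is given without a test. RLTRETN_Mm, also the LTR of the ETnERV families, is paired only with MMETn-int.

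Members with fewer counts in uninduced MSR-dCas9-Control were called more often in induced cells, in classes of level set after the data were seen. Of 25 members under 100 normalised counts there, 17 were called higher and 3 lower in induced cells. Of 111 members from 100 to 1000 counts, 52 were higher and 2 lower, and of 113 from 1000 to 10000, 29 and 1. None of the 5 members with 10000 or more was called. Of all members 38.6% were called higher and 2.36% lower in induced cells, and of all families 20.2% and 12.3%. From the lowest class to the highest, median log2 fold changes in induced cells were 1.25, 0.44, 0.26 and -0.05, and 1.90, 0.95, 0.76 and 0.40 at 12 h. The filter covered all groups, so members with very few counts in MSR-dCas9-Control could enter only where they were high in MSR-dCas9-Activator, as RLTR3_Mm did. RLTR9A4, RLTR46 and RLTR12F averaged 7.79, 17.7 and 17.2 normalised counts over the 36 libraries, and how they passed the filter was not examined. The share called higher in the lowest class is therefore partly set by the filter. Low counts have wider errors, and members with very few counts in all groups did not pass. Counts also depend on the length and number of copies, so the relation is given as a description.

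The other genes of the pathway were 35 genes for silencing of endogenous retroviruses, with calls at a log2 fold change beyond 1. In induced cells 0 were higher and 3 lower, beside 22.1% and 12.3% of 28542 genes tested. At 12 h 1 was higher and 10 lower (32.0% and 18.0% of all genes), and at 24 h 2 and 6 (28.9% and 5.89%). Under mitochondrial scaling 0, 0 and 0 were higher and 6, 20 and 12 lower. The share over all genes on that scale was not counted, so these counts cannot be set against the shares above. Its shift puts the median of all genes at -0.26, -0.50 and -0.16 at these times. The 3 called in induced cells were 5 without replicate 2 of either line, and the 8 at 24 h were 5 without replicate 1 of MSR-dCas9-Activator. Median log2 fold changes of the list were -0.10, -0.63 and -0.46 at these times, against 0.10, 0.15 and 0.08 over all genes. The list was chosen with earlier results of these data known.

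Of these genes, Dnmt3b, a de novo DNA methyltransferase, had mean normalised counts of 411 in MSR-dCas9-Control and 136 in MSR-dCas9-Activator in induced cells (log2 fold change -1.64 ± 0.21 (SE), edgeR adjusted p = 2.05e-07). Resf1, a partner of SETDB1, and Gm15446, a KRAB zinc finger gene, differed by -1.36 ± 0.44 (SE) and -1.15 ± 0.17 (SE). At 24 h the maintenance DNA methyltransferase Dnmt1 was at -1.19 ± 0.10 (SE) (adjusted p = 1.31e-10) and its recruiter Uhrf1 at -1.12 ± 0.10 (SE), with 0.04 ± 0.10 (SE) and -0.23 ± 0.10 (SE) in induced cells. The HP1 genes Cbx3 and Cbx5 were lower at 24 h (-1.17 ± 0.12 (SE) and -1.11 ± 0.10 (SE)) and Morc2a, which acts with the HUSH complex, was higher (1.10 ± 0.10 (SE)). 3 genes outside the naming rule were looked up for their role. Setdb1 was at -0.98 ± 0.15 (SE) in induced cells, under the limit of 1, and at -1.72 ± 0.15 (SE) at 12 h. Trim28 was at -0.05 ± 0.08 (SE) and Zfp708, whose protein binds RMER19B, at -0.22 ± 0.21 (SE) at 12 h, neither called. How these genes bear on the members was not tested.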

How the data were processed

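RNA of 36 MEF cultures was measured by stranded total RNA sequencing. The authors trimmed reads with cutadapt 1.8.1, aligned them to GRCm38 with STAR 2.5.2b and used TEtranscripts 2.0.3 to make the raw counts of genes and repeat families that were deposited. Not given in the sources used here are the strand setting, the release of the annotation and the way reads matching several copies were shared. Families are counted whole, with no genome position. 1 unnamed entry (64188 counts in all) was left out.

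Samples were grouped by line and time point from the labels, 12 groups of 3. The study's methods call the replicates biological. All 1492 repeat families kept by filterByExpr were fitted in R 4.3.3 with edgeR 4.0.16 (limma 3.58.1), glmQLFit with robust fitting and glmQLFTest, for 36 libraries by group with the replicate number as an additive term, as the study's time course design has it. Library sizes and TMM factors came from the 54842 gene rows. P-values were adjusted over all families. The SE was taken as the absolute log2 fold change over the root of F. Genes were fitted in the same way, 28542 tested, with a limit of 1. Intervals are exact (Clopper-Pearson). In simulated counts for the induced comparison, with 1475 families tested, 189 of 200 changed families were recovered (77 of 87 at log2 1 and 112 of 113 at log2 2). There were 6 false calls among the unchanged families. The simulation gave each family 1 spread for all groups, so it does not show how the fit behaves where spread differs between groups.

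Membership follows from the annotation alone, but this group of families and the gene lists were picked for study with earlier results of these data known. Named members were 21 fixed by name, the 5 largest rises and falls called at each time from induction averaging 100 or more normalised counts in the 6 libraries compared, and the 3 highest mean counts. Of the silencing genes, the 8 with the largest change among those called in induced cells or at 24 h were named. Alternatives were DESeq2 1.42.0, other scalings, filters, limits on the fold change, sets of libraries, the replicate block and leaving out each library. No sequences are printed, since none of these families was given with one here.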

Additional observations from a re-analysis of the deposited data

Results flagged for a closer look

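The lines differed in how 18 named members changed on induction, by a test of the difference itself (edgeR, Benjamini-Hochberg, called at an adjusted p under 0.05 and a log2 difference beyond 0.5). Each value below is the change in MSR-dCas9-Activator less that in MSR-dCas9-Control, on the log2 scale. Among internal sequences it was 2.97 for ERVB5_1-I_MM-int, 2.10 for MMERVK10D3_I-int, 1.83 for ERVB4_1-I_MM-int, 1.38 for ETnERV3-int, 1.26 for MMERVK9C_I-int, 1.22 for MMERVK9E_I-int, 0.836 for ETnERV2-int, 0.625 for MYSERV-int and 0.592 for MYSERV6-int. Among LTRs it was 2.53 for RLTR50B, 2.21 for RLTR10F, 1.96 for MMERVK10D3_LTR, 1.68 for RLTR13D, 0.887 for RLTR13A and 0.630 for RLTR9E. It was negative for RLTR31B_Mm at -0.596, RNERVK23-int at -0.953 and RMER16A3 at -1.21. Scaling to the mitochondrially encoded mRNAs moves these differences by about -0.39. The induced groups also differ in the hours of dox, 24 against 6, and this cannot be told apart from the effector.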

How the results depend on the processing

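Scaling to mitochondrially encoded mRNAs moved the number of members called between the lines to 64 (induced), 90 (3 h), 86 (6 h), 106 (12 h) and 66 (24 h), the change on induction to 24 and Activator 24 h against induced to 165, and turned the direction of Activator induced against uninduced (74 called, 32 higher and 42 lower). It reversed the log2 fold change of RLTR10C, RLTR22_Mus, RLTRETN_Mm and RMER19B at 3 h (-0.0522, -0.0148, -0.0205 and -0.0282), of MMTV-int, MYSERV6-int, RLTR10C and RMER19B at 6 h (-0.170, -0.00924, -0.124 and -0.0415), and of MLTR31C_MM and RLTR31B_Mm at 12 h (-0.627 and -0.616). A log2 fold change limit of 1 left 37, 67, 70, 110 and 49 members from induced to 24 h, 28 for the change on induction, 38 for Activator induced against uninduced and 13 for Activator 24 h against induced, since it is stricter. No limit gave 154 and 108 for the last 2. Without TMM the last was 106. Fits on the compared groups alone gave 1 (uninduced), 63 (induced) and 1 (Control induced against uninduced). The cause of these moves other than by the limit was not tested. Leaving out each library gave 0 to 0 (uninduced), 80 to 127 (induced), 133 to 167 (3 h), 147 to 173 (6 h), 201 to 213 (12 h), 96 to 155 (24 h), 51 to 109 (change on induction), 0 to 0 (Control induced against uninduced), 79 to 137 (Activator induced against uninduced), 26 to 77 (Activator 24 h against induced) and 0 to 0 (Control 24 h against induced). Silencing genes, under alternatives chosen after seeing the data, numbered 9, 22 and 20 at a limit of 0.5 (induced, 12 h, 24 h), 6 and 20 under mitochondrial scaling (induced, 12 h), and 2 to 5, 11 to 12 and 5 to 11 with a library left out. Shares over all genes under these alternatives were not counted. All other alternatives kept the direction and were within 1.5 times the count. Scaling to repeat families that are not members was chosen after seeing the data.

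Same-numbered replicates of the lines correlated at -0.00508 to 0.176 over genes and -0.117 to 0.38 over repeat families, over 0.1 in 9 and 11 of 18 pairs, so the numbers were not shown to pair the samples. With no replicate block 103, 150, 169, 208 and 129 members were called from induced to 24 h, and no comparison changed by over 1.5 times. Of the values of single members, 3580 kept their call or lack of one, 138 lost and 27 gained the call. Another 10 changed direction with a call in at least 1 of the fits. Changes of direction without a call in either fit count among the 3580. Families at a few counts per library have wide errors.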
